A study of Mus musculus with 2 samples.

Results

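Adipogenic transcription factors are the DNA-binding proteins that commit precursor cells to fat and switch on the genes of the mature adipocyte. The 10 described here are *Pparg*, *Cebpa*, *Cebpb*, *Cebpd*, *Klf4*, *Klf15*, *Rxra*, *Zfp423*, *Gata2* and *Gata3*. They were taken by name from a list of general adipocyte differentiation factors. Their Ensembl identifiers were looked up among the 52768 genes of the deposited expression tables. No measured value entered the rule, but earlier results of these data were known when the members were chosen. All 10 were found, and 9 had a mean of at least 1 FPKM (fragments scaled by exon length and library size) over both libraries, the level from which a gene entered the comparison.

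RNA came from interscapular brown adipose tissue (iBAT), the heat-producing fat pad between the shoulder blades, of C57BL/6 mice at 8 weeks of age. The flox/flox group carried loxP sites in both copies of *Mettl3*, which encodes the catalytic subunit of the enzyme that writes N6-methyladenosine (m6A) on mRNA, and had no Cre. The BKO group carried the same floxed alleles together with 1 copy of *Ucp1*-iCre, so that recombination could occur only in cells that express *Ucp1*, that is, brown adipocytes and not the stromal, vascular or immune cells of the pad. For each genotype the RNA of 4 mice was combined and sequenced as 1 library, and the comparison asked how loss of the methyltransferase in brown adipocytes moved the mRNA levels of the tissue. Per the study, the Cre of this line was inserted between an exon and the untranslated end of *Ucp1*. Mice with *Ucp1*-iCre alone were not analysed here. An effect of the insertion on *Ucp1* therefore cannot be told apart from loss of *Mettl3*. With 1 library per genotype there was no replicate check and no test between genotypes; every interval below covers counting error only. Where a pair of values is given, the flox/flox value comes first.

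The libraries held about 18933003 (flox/flox) and 20224261 (BKO) fragments in genes. *Mettl3* itself stood at 1.80 FPKM in the flox/flox library against 2.38 FPKM in that labelled BKO, resting on 165 and 253 fragments. A value over the whole gene includes the exons that Cre leaves in place, so it does not check the genotype, and the second library is called the library labelled BKO throughout. *Ucp1*, the uncoupling protein that defines brown adipocytes, was at 3164.5 and 537 FPKM, and *Adipoq*, the adipocyte hormone adiponectin, at 665 and 1149 FPKM, so that adipocyte RNA was abundant in both. In the library labelled BKO all 10 skeletal muscle markers and all 10 macrophage markers were 2-fold or more above flox/flox. Over all genes compared the share was 11.0%. Summed levels were 40.7 against 2808 FPKM for muscle and 109 against 563 FPKM for macrophages. In flox/flox only 6 of these muscle and 9 of these macrophage markers reached 1 FPKM. The others entered the comparison only through the library labelled BKO. In bulk tissue, fewer cells of a type and less RNA per cell cannot be told apart.

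In the classical order of fat cell formation, known mainly from mouse cell lines, C/EBPβ and C/EBPδ appear early, helped by KLF4, and switch on PPARγ and C/EBPα. PPARγ binds DNA as a dimer with a retinoid X receptor such as RXRα, and PPARγ and C/EBPα then sustain each other and drive the genes for lipid storage and hormone output. ZFP423 marks and primes committed preadipocytes, KLF15 acts in the later metabolic program, and GATA2 and GATA3 hold preadipocytes back. In brown fat the same core works with factors such as EBF2 and PRDM16.

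Because C/EBP proteins act through short DNA elements, the promoters of the 3 most abundant factors are shown first, as the 250 bases before a transcription start from RefSeq (GRCm38.p6, plus strand in all 3). Capitals mark matches, on either strand, to a CCAAT box (CCAAT), a C/EBP element (TTNNGNAA), a GC box (GGGCGG) or a TATA box (TATAAA). RefSeq gives *Pparg* 3 starts, and the one shown lies farthest downstream, where the adipocyte-selective PPARγ2 transcript begins.

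*Pparg*, chr6:115421816-115422065: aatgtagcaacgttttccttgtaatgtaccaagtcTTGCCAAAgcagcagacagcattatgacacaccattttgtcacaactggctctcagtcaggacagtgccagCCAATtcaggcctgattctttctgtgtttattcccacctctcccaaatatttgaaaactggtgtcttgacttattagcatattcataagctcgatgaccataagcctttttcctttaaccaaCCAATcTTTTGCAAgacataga
*Cebpa*, chr7:35119043-35119292: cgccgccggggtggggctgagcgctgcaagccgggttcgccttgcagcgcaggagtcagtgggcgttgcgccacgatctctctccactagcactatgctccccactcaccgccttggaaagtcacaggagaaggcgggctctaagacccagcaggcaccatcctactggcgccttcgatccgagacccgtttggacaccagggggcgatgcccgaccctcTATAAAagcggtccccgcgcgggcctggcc
*Cebpb*, chr2:167688665-167688914: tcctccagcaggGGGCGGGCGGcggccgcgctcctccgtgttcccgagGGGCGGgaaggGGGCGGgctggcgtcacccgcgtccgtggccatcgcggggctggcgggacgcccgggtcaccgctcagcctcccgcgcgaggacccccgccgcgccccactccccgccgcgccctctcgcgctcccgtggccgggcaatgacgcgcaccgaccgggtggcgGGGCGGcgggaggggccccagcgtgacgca

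These windows differed in base composition, with 40.8% G and C at the *Pparg* start shown, 66.4% at *Cebpa* and 81.6% at *Cebpb*. The *Pparg* window shown held 2 CCAAT boxes and 2 C/EBP elements, and the *Cebpa* and *Cebpb* windows held neither. The upstream *Pparg* windows, not shown, had 82.4% and 63.6% G and C. They held 0 and 1 CCAAT boxes and no C/EBP element. Of 32851 RefSeq promoters of the same length, 33.8% held a CCAAT box, 36.8% a C/EBP element, 32.7% a GC box and 12.4% a TATA box, so all of these letters are common. RefSeq promoters were matched for 9 of the 10 factors, with 14 windows in all; *Cebpd* was the exception. No window of any of them held the letters GATAA, present in 22.6% of promoters, or the DR1 pattern bound by PPARγ and RXR dimers (AGGNCA repeated with 1 base between), present in 0.338%. A match or its absence in 250 bases says nothing of binding.

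The mRNA of a factor can itself carry m6A, usually near the stop codon and at the letters GGACU, written GGACT in DNA. The libraries did not measure m6A, and the letters are given only to show where such sites could lie. The main transcript of a gene was its longest protein-coding transcript with an annotated start and stop codon. For *Pparg* it begins upstream of the promoter shown above. The following 25-base windows, in transcript direction with GGACT in capitals, are those within 200 bases of the stop codon in the main transcript of each factor (GRCm38).

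*Pparg*, chr6:115490173-115490197: agatctacaaGGACTtgtattagca
*Cebpa*, chr7:35120591-35120615: gcgcaagccaGGACTaggagattcc
*Cebpa*, chr7:35120660-35120684: cctctgagccGGACTcggtgcgtct
*Cebpb*, chr2:167690094-167690118: ccgggtttcgGGACTtgatgcaatc
*Cebpd*, chr16:15888250-15888274: cttgggcactGGACTgcgagagaag
*Gata2*, chr6:88205650-88205674: tctccttggaGGACTcccagccttg
*Gata3*, chr2:9858539-9858563 (minus strand): acgcgctggaGGACTtccccaagag

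The *Pparg* match began 10 bases before the stop codon, in the last exon, and that of *Gata3* 181 bases before it. Those of *Cebpa*, *Cebpb*, *Cebpd* and *Gata2* lay in the 3′ untranslated region, 105 to 194 bases past the stop. *Klf4*, *Klf15*, *Rxra* and *Zfp423* had none within 200 bases. Over 10617 main transcripts of genes that passed the filter, 41.1% held GGACT within 200 bases of the stop and 92.5% held it anywhere, at a median of 1.06 per kilobase. *Cebpb* was the densest of the 10 at 2.66 per kilobase, *Pparg* had 0.941, and *Gata2* was the sparsest at 0.280. The 5 factors above their flox/flox level in the library labelled BKO, described next, held 1.34 to 2.66 per kilobase and the 4 below it 0.280 to 1.52, ranges that overlapped. A match within 200 bases of the stop was present in 2 of those 5 and in 3 of those 4.

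The 10 factors spanned more than 3 orders of magnitude in iBAT, from *Cebpa*, among the most abundant mRNAs of the tissue, to *Gata3*, which was hardly detected. In the flox/flox library the order by FPKM was *Cebpa*, *Cebpb*, *Pparg*, *Klf15*, *Rxra*, *Klf4*, *Gata2*, *Zfp423*, *Cebpd* and *Gata3*, and only *Zfp423* and *Cebpd* overlapped their neighbour in counting error. In the library labelled BKO the order was *Cebpa*, *Cebpb*, *Pparg*, *Rxra*, *Klf15*, *Klf4*, *Cebpd*, *Zfp423*, *Gata2* and *Gata3*, with *Rxra* and *Klf15* overlapping. *Cebpd* thus moved past *Zfp423* and *Gata2*, *Zfp423* past *Gata2* and *Rxra* past *Klf15*, while the leading 3 kept their places.

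**Figure D1:**
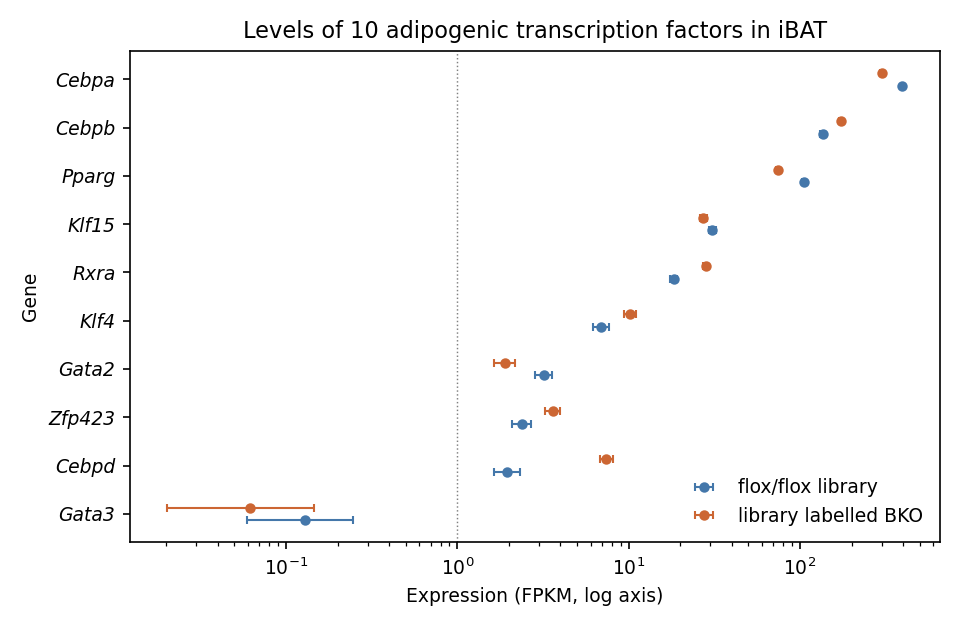
Expression of the 10 factors in FPKM (log axis) in flox/flox iBAT (blue) and in the library labelled BKO (orange), 1 library each. Points are the deposited values, bars are 95% intervals for counting error, and the dotted line marks 1 FPKM; *Gata3* lies below that line in both libraries, and *Cebpd* shows the widest gap, 1.95 against 7.41 FPKM.

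Of the 9 factors compared, only *Cebpd* reached 2-fold or more above its flox/flox level in the library labelled BKO, 1 of 9, and 0 of 9 were 2-fold or more below. Over all 12205 genes compared, 11.0% lay 2-fold or more above and 5.91% 2-fold or more below, so the count of 1 in 9 was near the background. The median log2 ratio of the 9 factors (library labelled BKO over flox/flox, after adding 0.1 FPKM to both values) was 0.35, beside 0.02 over all genes compared. The ratios were above 0 for *Cebpd*, *Rxra*, *Zfp423*, *Klf4* and *Cebpb* and below 0 for *Gata2*, *Pparg*, *Cebpa* and *Klf15*. *Klf15* changed sign under 1 other scaling (TPM, where all values of a library sum to a fixed total), and the other 8 kept their sign under each setting in which they were compared.

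**Figure D2:**
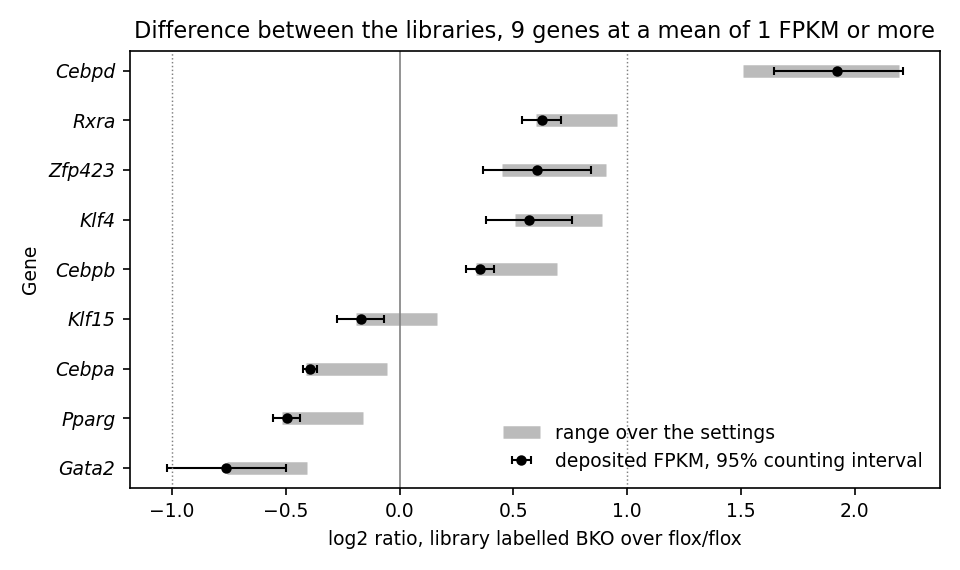
Log2 ratio (library labelled BKO over flox/flox) for the 9 factors with a mean of at least 1 FPKM; points are ratios of the deposited FPKM with 95% counting intervals, grey bars span the log2 ratios over all pseudocounts, filters and scalings, and dotted lines mark 2-fold. Only *Cebpd* lies past 2-fold under every setting in which it was compared, and the grey bar of *Klf15* crosses 0.

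*Pparg* encodes the nuclear receptor without which fat cells do not form. Its level was 105 FPKM in the flox/flox library against 74.3 FPKM in that labelled BKO, resting on 5411 and 4439 fragments. The level was therefore 1.41-fold lower (95% counting interval 1.36 to 1.47), a log2 ratio of -0.50 that placed *Pparg* at percentile 16.6 of the genes compared. The gene lies on chromosome 6 (115360951 to 115490399, plus strand, GRCm38) with 13 exon blocks and 7 annotated transcripts, and the gene-level value adds PPARγ1 and PPARγ2 together.

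*Cebpa*, whose protein cooperates with PPARγ in mature adipocytes, was the most abundant of the 10 in both libraries. It stood at 393 FPKM in the flox/flox library against 299.5 FPKM in that labelled BKO, ranks 118 and 130 of all genes. The level was 1.31-fold lower (1.28 to 1.34) in the library labelled BKO, with a log2 ratio of -0.39 at percentile 21.3. *Cebpa* has a single exon on chromosome 7 (35119293 to 35121928, plus strand), which shares 51 bases with the antisense gene *Gm45091* (5.68 and 5.20 FPKM). The ratio of *Cebpa* to *Pparg* within a library, which does not depend on how the libraries were scaled, was 3.75 in flox/flox and 4.03 in the library labelled BKO, a fold of 1.08 (1.03 to 1.13), so the core pair was lower by nearly the same factor. How much lower depended on the scaling: under TPM the log2 ratio of *Cebpa* was -0.06 and that of *Pparg* -0.16, against a median of all genes of 0.35.

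The early C/EBP factors stood on the other side. *Cebpb* measured 136 FPKM in flox/flox iBAT against 173 FPKM in the library labelled BKO, resting on 3564 and 5277 fragments. The level was 1.28-fold higher (1.23 to 1.33), a log2 ratio of 0.35 at percentile 71.3. *Cebpb* is a single exon on chromosome 2 (167688915 to 167690418, plus strand) and shares 312 bases with *Tmem189* on the opposite strand (8.34 and 12.1 FPKM). Within a library, *Cebpb* amounted to 0.345 of *Cebpa* in flox/flox and 0.579 in the library labelled BKO, so the balance between them shifted 1.68-fold (1.60 to 1.76) towards *Cebpb*.

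*Cebpd*, which is induced by hormones and inflammatory signals in many cell types as well as early in adipogenesis, measured 1.95 FPKM in flox/flox iBAT against 7.41 FPKM in the library labelled BKO. These levels rested on 128 and 562 fragments. The level was 3.79-fold higher (3.12 to 4.63), with a log2 ratio of 1.87 at percentile 95.3, the largest difference among the 10. *Cebpd* moved from rank 9773 to rank 5142 of all genes, yet remained the least abundant of these 3 C/EBP genes, and relative to *Cebpa* it was 4.98-fold higher (4.10 to 6.04). Its single exon on chromosome 16 (15887286 to 15891031, plus strand) shares 562 bases with exons of *Spidr* on the opposite strand. *Spidr*, a DNA repair gene, was at 2.20 and 1.31 FPKM, in the other direction. Whether strand was used in counting was not given, so for each of these pairs reads from the shared bases cannot be told apart.

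*Klf4*, known to act upstream of *Cebpb* in mouse preadipocytes, measured 6.90 FPKM in flox/flox iBAT against 10.2 FPKM in the library labelled BKO, resting on 368 and 631 fragments. The level was 1.48-fold higher (1.30 to 1.69), a log2 ratio of 0.56 at percentile 79.6. All 3 early factors were thus above their flox/flox level by more than counting error, while both core factors were below it, *Cebpa* only slightly so under TPM.

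C/EBP and KLF factors that act early in fat cells are also expressed in myeloid and stromal cells, and the markers of those cells moved with them. The 10 macrophage markers had a median log2 ratio of 2.18, with *Lyz2* at 41.0 and 237 FPKM and *Cd68* at 3.09 and 20.1 FPKM. Of the 9 preadipocyte and fibroblast markers compared, 5 lay past 2-fold upward and 1 downward, beside 11.0% and 5.91% of all genes compared. Their list summed to 194 and 534 FPKM. *Dpp4*, 1 of the 5 upward, was at 0.208 and 3.11 FPKM and passed the filter only through the library labelled BKO. The part of these cells in the levels of *Cebpb*, *Cebpd* and *Klf4* was not tested.

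*Rxra* encodes a retinoid X receptor that pairs with PPARγ and with several other nuclear receptors. It measured 18.3 FPKM in flox/flox iBAT against 28.2 FPKM in the library labelled BKO, resting on 1745 and 3114 fragments. The level was 1.54-fold higher (1.45 to 1.64), a log2 ratio of 0.62 at percentile 81.4. The gene lies on chromosome 2 (27676440 to 27762957, plus strand). Within a library *Rxra* was 0.174 of *Pparg* in flox/flox and 0.379 in the library labelled BKO. That is a 2.18-fold shift (2.03 to 2.33) in the ratio of *Rxra* to *Pparg* mRNA. The part of cells other than adipocytes in the *Rxra* level was not tested.

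The other retinoid X receptors stood the opposite way. *Rxrb* was at 25.5 FPKM in flox/flox against 17.3 FPKM in the library labelled BKO, or 1.47-fold lower (1.37 to 1.59). *Rxrg*, the form with the most restricted tissue range, was at 13.7 and 8.65 FPKM, 1.58-fold lower (1.39 to 1.80). The summed level of the family was nearly level, 57.5 and 54.2 FPKM, but *Rxra* made up 31.8% of it in flox/flox and 52.0% in the library labelled BKO, and it replaced *Rxrb* as the leading form.

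Among the PPAR receptors, *Ppara*, which drives fatty acid oxidation, was at 40.3 and 38.1 FPKM, a 1.06-fold difference (1.00 to 1.11) towards flox/flox. *Ppard*, a broadly expressed receptor of oxidative metabolism, was at 7.28 and 6.64 FPKM, with fragments undetermined and hence no interval. *Pparg* held 68.8% of the family's summed FPKM in flox/flox and 62.4% in the library labelled BKO, so it remained the main PPAR of the tissue in both.

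The C/EBP family summed to 566 FPKM in flox/flox against 511 FPKM in the library labelled BKO. *Cebpa* held 69.4% and 58.7% of it, *Cebpb* 23.9% and 33.9%, and *Cebpd* 0.345% and 1.45%. *Cebpg*, a short partner that lacks an activation domain, was at 17.4 and 20.8 FPKM, 1.19-fold higher (1.12 to 1.27). *Ddit3* encodes CHOP, a stress-induced member that dimerises with other C/EBPs and can block their binding. It was at 18.2 FPKM in flox/flox against 9.46 FPKM in the library labelled BKO, or 1.92-fold lower (1.67 to 2.21), the only C/EBP gene beside *Cebpa* below its flox/flox level. *Cebpe*, a factor of granulocytes, had 1 and 3 fragments.

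**Figure D3:**
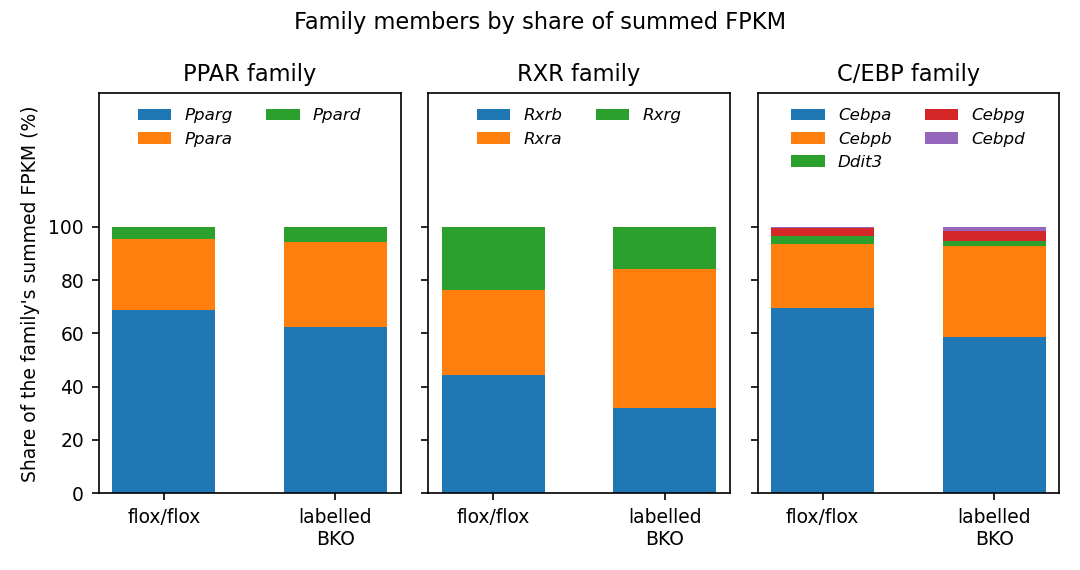
Share of each family's summed FPKM (%, stacked bars from 0) held by its members in each library, for the PPAR, RXR and C/EBP families; *Cebpe*, under 0.1%, is not drawn. *Rxra* takes 31.8% and then 52.0% of the RXR family, and *Cebpb* 23.9% and then 33.9% of the C/EBP family.

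*Klf15*, a factor of gluconeogenic, amino acid and lipid metabolism that also promotes adipogenesis, measured 30.8 FPKM in flox/flox iBAT against 27.3 FPKM in the library labelled BKO, resting on 1502 and 1544 fragments. The level was 1.13-fold lower (1.05 to 1.21), with a log2 ratio of -0.17 at percentile 35.5, the smallest difference among the 9. Under TPM scaling the log2 ratio was 0.16, and the median of all genes compared was then 0.35, so *Klf15* stayed below the median gene. The ratio of *Klf15* to *Klf4* was 4.46 in flox/flox and 2.67 in the library labelled BKO. *Klf15* is also expressed in skeletal muscle, whose markers had a median log2 ratio of 5.88, and the part of muscle RNA in its level was not tested.

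Of the 17 KLF genes, 11 reached a mean of 1 FPKM. Of these, 0 lay past 2-fold upward and 1 downward, beside 11.0% and 5.91% of all genes compared. *Klf9*, a factor that promotes late adipogenesis, was the most abundant at 52.7 and 39.4 FPKM. *Klf10*, induced by TGF-β, was at 26.0 and 12.9 FPKM and lay just past 2-fold, also without an interval. *Klf7*, which restrains adipogenesis, was at 1.29 and 0.942 FPKM, 1.37-fold lower (1.10 to 1.71). On the other side, *Klf2*, an endothelial and myeloid factor that represses *Pparg*, was 1.64-fold higher (1.44 to 1.88) and *Klf16* 1.497-fold higher (1.24 to 1.81). *Klf15* held 18.7% and 18.0% of the summed FPKM of the family.

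*Zfp423*, the zinc-finger factor of committed preadipocytes, measured 2.38 FPKM in flox/flox iBAT against 3.61 FPKM in the library labelled BKO, resting on 233 and 410 fragments. The level was 1.52-fold higher (1.29 to 1.79), a log2 ratio of 0.58 at percentile 80.3. The gene lies on chromosome 8 (87661810 to 87959595, minus strand). In white fat of mice ZFP423 is known to restrain the thermogenic program by blocking EBF2. The mRNA levels of the EBF genes stood the other way from that of *Zfp423*, and a link between them was not tested. *Ebf2* was at 11.7 and 6.78 FPKM, 1.72-fold lower (1.59 to 1.87) in the library labelled BKO. *Ebf1* was at 11.6 and 4.96 FPKM, 2.35-fold lower (2.17 to 2.54), and *Ebf3* at 7.02 and 4.03 FPKM, 1.74-fold lower (1.59 to 1.91). *Zfp521*, the paralog of *Zfp423* that opposes adipogenesis, had 48 and 79 fragments and *Ebf4* had 18 and 11, both under 1 FPKM.

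In the library labelled BKO, *Zfp423* relative to *Pparg* was 2.15-fold higher (1.82 to 2.53). Preadipocyte and fibroblast markers, of the cells in which *Zfp423* is usually found, were mostly higher beside it: 8 of the 9 compared had a ratio above 0 and 1 below, with a median log2 ratio of 1.04. Of the 8, *Dpp4* (0.208 and 3.11 FPKM) passed the filter only through the library labelled BKO. *Pdgfra* was at 1.83 and 3.87 FPKM, *Pi16* at 2.34 and 21.1 FPKM and *Col1a1* at 26.4 and 138 FPKM. The exception was *Pdgfrb*, also a mural cell marker, at 16.2 and 7.69 FPKM, and *Dlk1*, under the filter, was at 0.546 and 0.288 FPKM. The part of these cells in the *Zfp423* level was not tested.

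*Gata2*, which holds preadipocytes back and is also a factor of endothelial and mast cells, measured 3.21 FPKM in flox/flox iBAT against 1.89 FPKM in the library labelled BKO, resting on 303 and 207 fragments. The level was 1.69-fold lower (1.42 to 2.03), a log2 ratio of -0.73 at percentile 9.88, the lowest of the 9. The gene lies on chromosome 6 (88193891 to 88207032, plus strand). Relative to *Pparg*, which was also lower, the fold was 0.833 (0.695 to 0.998). The ratio of *Zfp423* to *Gata2* was 0.740 in flox/flox and 1.91 in the library labelled BKO.

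Endothelial markers were mostly lower beside *Gata2*. Of the 10, 6 lay past 2-fold downward and 0 upward, beside 5.91% and 11.0% of all genes compared. Their list summed to 310 and 124 FPKM, with *Cdh5* (VE-cadherin) at 71.9 and 26.1 FPKM. *Vwf* alone stood higher, at 1.72 and 2.39 FPKM (1.39-fold, 1.24 to 1.56). Mast cell markers were instead higher for 4 of the 5 compared, and their list summed to 7.62 and 27.5 FPKM. The exception was *Hdc*, at 1.79 and 0.657 FPKM, and *Kit*, under the filter, was at 1.19 and 0.599 FPKM. *Cma1*, 1 of the 4 higher, was at 0.852 and 7.41 FPKM and passed the filter only through the library labelled BKO. The part of either cell type in the *Gata2* level was not tested.

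*Gata3*, the second GATA factor of preadipocytes and a master regulator of T helper and innate lymphoid cells, had 9 fragments in flox/flox and 5 in the library labelled BKO, 0.129 and 0.0621 FPKM. A difference was not detectable at this depth, with a ratio of 0.480 and an interval of 0.126 to 1.59. Of the other GATA genes, *Gata1* had 2 and 3 fragments, *Gata4* 1 and 2, and *Gata5* none in either. For a count of 0, about 3 fragments is the 1-sided 95% limit, unlike the 2-sided intervals given elsewhere. *Gata6*, a factor of vascular smooth muscle and of resident peritoneal macrophages, was at 0.394 and 0.603 FPKM. *Gata2* was thus the only GATA gene at 1 FPKM or more.

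The other regulators of adipogenesis lay, at the median, slightly below all genes compared. Of 27 other factors and cofactors that promote adipogenesis, 25 were compared. Of these, 0 lay past 2-fold upward and 1, *Ebf1*, downward, beside 11.0% and 5.91% of all genes compared. Under TPM the counts for these factors were 1 and 0. There were 10 ratios above 0 and 15 below, with a median log2 ratio of -0.18. *Srebf1*, the lipogenic SREBP gene, was the most abundant at 46.5 and 51.2 FPKM. The highest ratios were those of *Tle3*, a PPARγ coregulator (1.61-fold higher, 1.49 to 1.73), *Zfp467* (1.54-fold, 1.36 to 1.73) and *Klf6* (1.32-fold, 1.20 to 1.45). The lowest after *Ebf1* and *Ebf2* was *Nfia*, a brown fat factor that binds with PPARγ, at 10.8 and 6.51 FPKM (1.66-fold lower, 1.55 to 1.78).

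Of 37 factors that restrain adipogenesis, 23 were compared, with a median log2 ratio of -0.11. Of these, 1 lay past 2-fold upward (3 under TPM) and 0 downward, beside 11.0% and 5.91% of all genes compared. The member past 2-fold was *Foxo1*, a repressor of *Pparg* that insulin keeps out of the nucleus, at 8.94 and 19.1 FPKM (2.14-fold higher, 2.005 to 2.28). *Twist1* followed at 1.73-fold higher (1.497 to 1.997), then *Klf2*. The lowest were *Ddit3*, *Irf4* (1.53-fold lower, 1.39 to 1.69) and *Id2* (1.52-fold lower, 1.29 to 1.80), and the most abundant was *Ctnnb1*, β-catenin, at 56.7 and 40.1 FPKM.

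The genes that PPARγ and C/EBPα are known to drive lay on both sides of their flox/flox levels. Whether the levels of *Pparg* and *Cebpa* had a part in this was not tested, nor was the part of cells other than adipocytes. Of 42 such targets, all were compared, and 8 lay past 2-fold upward and 3 downward in the library labelled BKO. Over all genes compared, the shares were 11.0% upward and 5.91% downward. The median log2 ratio of the targets was 0.13, and *Cebpa* is itself on this list. Highest were *Lep*, the hormone leptin, at 1.76 and 17.4 FPKM (9.88-fold higher), *Fabp5*, a fatty acid binding protein also of macrophages, at 14.6 and 90.7 FPKM (6.20-fold), and *Agpat2*, an enzyme of triglyceride synthesis, at 331 and 1364 FPKM (4.12-fold). Lowest were *Ucp1*, 5.89-fold lower, *Gyk*, glycerol kinase (*Gk* in the annotation), at 53.0 and 10.6 FPKM, 4.98-fold lower, and *Aqp7*, the glycerol channel, at 134.8 and 62.5 FPKM, 2.16-fold lower. *Scd1*, a fatty acid desaturase, was the most abundant at 4787 and 10001 FPKM. The general adipocyte markers, 5 in all, had none past 2-fold and summed to 3434 and 4311 FPKM, whereas the 5 brown adipocyte markers summed to 4791 and 1792 FPKM. *Ucp1* made up 66.1% of the latter sum in flox/flox, and the list was mixed, with *Ucp1* and *Prdm16* (5.98 and 2.13 FPKM) past 2-fold downward and *Elovl3*, a fatty acid elongase, upward at 21.1 and 119 FPKM (5.63-fold higher).

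**Figure D4:**
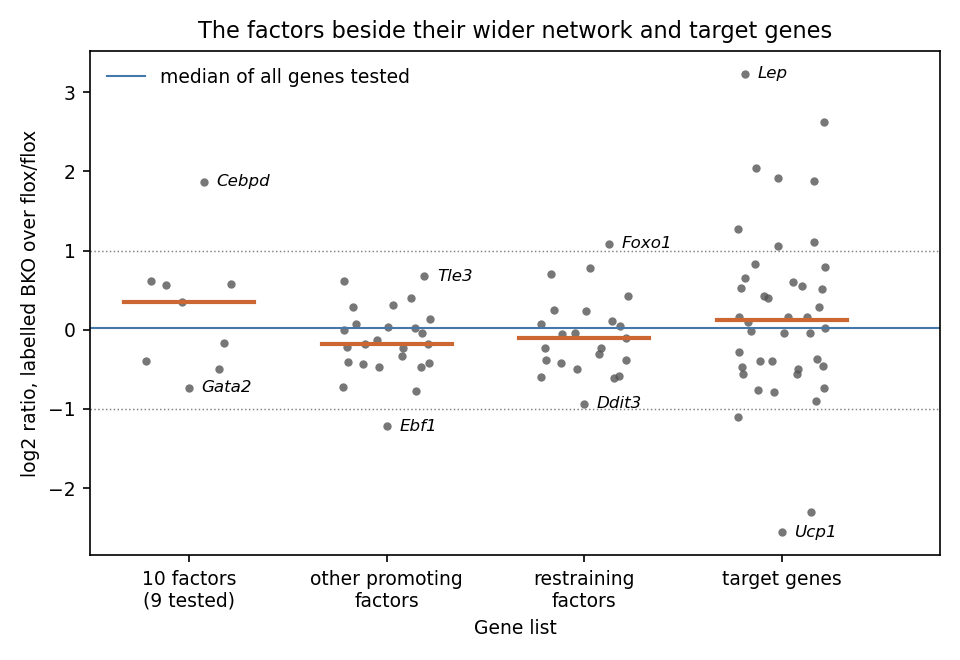
Log2 ratio (library labelled BKO over flox/flox, 0.1 FPKM added) for each gene with a mean of at least 1 FPKM in 4 lists: the 10 factors (9 compared), other promoting factors (25), restraining factors (23) and target genes (42). Orange bars are list medians, 0.35, -0.18, -0.11 and 0.13 (under TPM scaling the medians of the promoting and restraining factors turn positive and lie below the median of all genes, then 0.35), the blue line is the median of all genes compared, 0.02, and dotted lines mark 2-fold; *Cebpd*, *Foxo1* and *Lep* are the highest of their lists.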

How the data were processed

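Total RNA of iBAT was sequenced as 2 paired-end libraries, each pooled from 4 mice, and groups were taken from the labels. Per the study's methods the authors aligned the reads to GRCm38 with TopHat2 and counted them with HTSeq 0.6.1; they deposited 1 FPKM value per gene and library. How counts became FPKM, and how strand and reads matching several genes were handled, is not given in the sources used here. Close paralogs and overlapping genes are therefore uncertain.

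FPKM multiplied by union exon length (GENCODE M21) gave whole numbers of fragments after division by 1 constant for each library, within 0.001 fragments plus a relative 1e-08. Fragments followed for 90.1% of genes above 0 at the annotated length and for 4.0% at another length within 50% of it. The fragment totals in the text include rounded estimates for the remaining 5.8%. The constants correspond to 17480546 fragments for flox/flox, 92.3% of its total, and 20240633 for the library labelled BKO, 100.1% of its total.

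The measure was the log2 ratio after adding 0.1 FPKM, which understates the change of low genes, for genes whose mean reached 1 FPKM. Folds are plain FPKM ratios, with an exact Clopper-Pearson 95% interval on fragments (Wald on the log scale for ratios between genes). Whether molecular identifiers were used is not given in the sources used here. The intervals treat fragments as independent and cover counting error only, so PCR copies would make them too narrow. A fold of at least 2 after the addition was counted; no test was possible and no count model was run. Recovery of fragments was tested on simulated data. Alternatives were 2 other pseudocounts, 2 filters and 5 scalings.

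The members and 19 gene lists were chosen with earlier results of these data known. The text names every member, all members of the PPAR, RXR, C/EBP and GATA families and, for the KLF family and each pathway list, the most abundant gene and the 3 highest and 3 lowest ratios above the filter; other genes were named for context after their values were seen. The T cell and innate lymphoid (6.10 and 13.9 FPKM in sum), keratinocyte (2.23 and 2.88 FPKM) and neuron and Schwann cell lists (42.8 and 19.8 FPKM) were computed too. *Thy1*, at 1.95 and 9.50 FPKM, made up 31.9% and 68.2% of the T cell and innate lymphoid sum. Promoters were taken from RefSeq (GRCm38.p6). Python 3.11.15 with numpy 2.4.6, pandas 2.3.3, scipy 1.17.1 and matplotlib 3.10.9 was used.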

Additional observations from a re-analysis of the deposited data

How the results depend on the processing

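No paired analysis was possible because each genotype had 1 library, and for the same reason no replicate could be left out. The sign held for 8 of the 9 factors under each setting that kept them, while *Klf15* turned to a log2 ratio of 0.16 under TPM, where *Cebpa* came near 0 (-0.06) and *Pparg* stood at -0.16. Against the deposited scaling, the median of all genes compared shifted by 0.33 under TPM and by 0.11 with each library scaled to its own fragments. TPM without mitochondrial genes shifted it by 0.02. Of the genes past 2-fold, 65.0% were higher as deposited and 83.7% under TPM.

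With a filter of 5 FPKM, 0 of 6 factors were at least 2-fold higher, since *Cebpd* was left out by construction. The median of the factors was 0.0917 both without a filter and with the filter of 5 FPKM, and 0.69 under TPM. Genes at least 2-fold higher numbered 3393 without a filter, 548 with 5 FPKM and 2091 under TPM. Genes at least 2-fold lower numbered 413 with a pseudocount of 1 FPKM, 2316 without a filter, 277 with 5 FPKM and 406 under TPM. Under TPM the medians were 0.15 for promoting factors, 0.21 for restraining factors and 0.46 for targets, and with own fragment totals 0.0023 for restraining factors. With ratios centred on the median of all genes, no list median changed sign. Without a filter, 1 promoting and 4 restraining factors lay past 2-fold upward and 1 of each downward. Depth limits *Gata3*, with 9 and 5 fragments.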

Other observations

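Several genes known to restrain adipogenesis lay under the filter of 1 FPKM, and the following were picked out after their values were seen. *Gli2*, a Hedgehog effector, had 8 fragments in flox/flox and 64 in the library labelled BKO, a 6.91-fold higher level (95% counting interval 3.30 to 16.7). *Sox9*, a factor of cartilage and progenitor cells, had 8 and 49 fragments, 5.29-fold higher (2.48 to 12.9). *Runx2*, the osteoblast factor, had 6 and 30, 4.32-fold higher (1.77 to 12.7), and *Twist2* 4 and 23, 4.97-fold higher (1.70 to 19.8). On the other side, *Id4* had 91 and 32 fragments, 3.29-fold lower (2.18 to 5.09), and *Dlk1* 54 and 33, 1.89-fold lower (1.21 to 3.02). *Gli1* had 27 and 16, 1.95-fold lower (1.02 to 3.88), and *Nr2f1* 62 and 41, 1.75-fold lower (1.16 to 2.66). Within the restraining list the genes under the filter therefore stood in both directions, as did those above it. None of these values has a replicate.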
